A study of Mus musculus with 7 samples.

Results

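Genes that mark the subsets of dendritic cells were followed in bulk RNA-seq of mouse pancreatic ductal adenocarcinoma (PDA) tumors. The 10 genes are *Xcr1*, *Clec9a*, *Batf3*, *Wdfy4*, *Cd209a*, *Flt3*, *Zbtb46*, *Ccr7*, *Ccl22* and *Siglech*, and they were taken by an exact match of the gene name among 38026 genes. Each matched 1 row. The tumors were grown subcutaneously in C57BL/6 mice from the 1242 KPC line, a PDA line from a mouse tumor with Pdx1-Cre and LSL-*Trp53* R172H/+, among other alleles. The cancer cells of both groups carried Cas9. In the sgScramble group (n = 4, replicates 1 to 4) they carried a scrambled guide RNA, and in the sgKrt19 group (n = 3, replicates 5, 6 and 8) a guide RNA against *Krt19*, an epithelial keratin. All tumors were collected 2 weeks after inoculation without treatment, from mice bought at 6 weeks of age and housed for 2 weeks. The editing was in the injected cancer cells, so that dendritic cells in both groups came from unedited hosts. Whether the sequenced tumors came from a polyclonal line or from a clone is not given in the sources used here.

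Dendritic cells take up antigen and present it to T cells. Conventional type 1 dendritic cells (cDC1) cross-present antigen to CD8+ T cells, type 2 cells (cDC2) mainly present to CD4+ T cells, and plasmacytoid cells are known for type I interferon. On maturation, dendritic cells gain CCR7 and migrate to the draining lymph node. In tumors, cDC1 are attracted by XCL1, the ligand of XCR1, and their numbers depend on FLT3 ligand.

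The question was whether the transcripts of these subsets differ between tumors of cancer cells with a scrambled guide and with a guide against *Krt19*. Reads counted in genes, as recovered from the deposited values, were 40781199 to 44972100 per library. Values are normalized read counts, in which the reads of a gene are scaled by a size factor for each library. The ± sign gives the SD among libraries of 1 group. A value was tested with limma on log2(value + 1) and called at an adjusted p under 0.05. The added 1 makes changes of low genes smaller on that scale. A value near 0 in 1 library can make them larger, as for *Cd209a*. Of 21322 genes tested, 34.0% were called, 17.9% as higher and 16.0% as lower in sgKrt19. The targeted *Krt19* averaged 23053 ± 4392 in sgScramble (SD, n = 4) against 2012 ± 434 in sgKrt19 (SD, n = 3), so that log2 values fell by 3.52 and the sgKrt19 mean was 8.73% of the sgScramble mean. Nothing in the labels says whether replicates are separate mice. The paper describes RNA-seq of individual tumors, from cells injected into the right flank. The p-values measure the spread between these libraries.

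Among the 10 genes, 9 passed the filter on low values and 2 were called, *Xcr1* and *Clec9a*, both higher in sgKrt19. This is 2 of 9 beside 17.9% of all genes called higher. By edgeR, which called 33.7% of all genes in either direction, the same 2 genes passed. In 2 of the 9 the groups did not overlap in either direction, beside 41.1% of all genes. The median log2 fold change of the 9 was 0.21, beside 0.0072 over all genes tested. The other 7 tested genes did not pass. In bulk tissue, more cells of a type and more RNA per cell cannot be told apart.

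**Figure D1:**
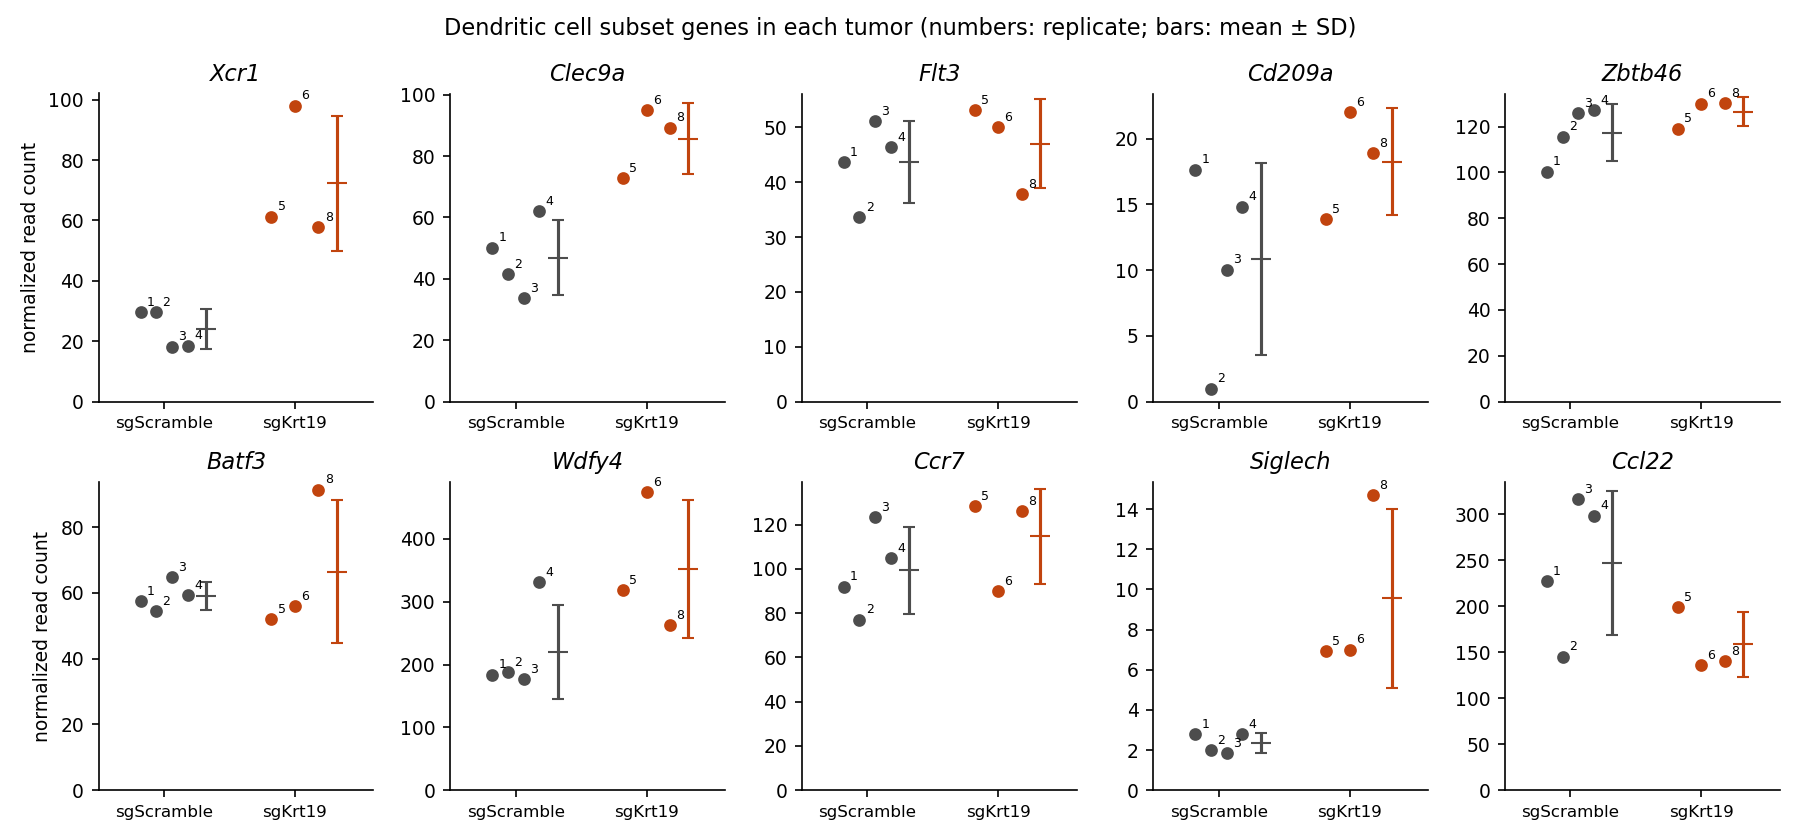
Normalized read count (vertical axis, from 0) of the 10 genes in each library, with sgScramble in gray and sgKrt19 in orange. Points are libraries with their replicate number, and bars give the mean ± SD. All 3 sgKrt19 points lie above all 4 sgScramble points for *Xcr1*, *Clec9a* and *Siglech*.

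The sequence before the start site is shown for the 2 genes that were called. The windows hold the 250 bases before the RefSeq start site on GRCm38.p6 and are written 5′ to 3′ on the strand of the gene. The window of *Xcr1* lies at chr9:123862030-123862279 on the minus strand and that of *Clec9a* at chr6:129408612-129408861 on the plus strand. Capitals mark matches to the letters TATAAA and GGAAGT on either strand.
Xcr1: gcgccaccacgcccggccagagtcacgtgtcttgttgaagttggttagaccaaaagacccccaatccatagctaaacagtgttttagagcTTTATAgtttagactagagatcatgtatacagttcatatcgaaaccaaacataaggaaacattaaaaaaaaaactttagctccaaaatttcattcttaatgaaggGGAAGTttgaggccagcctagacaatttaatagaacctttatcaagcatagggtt
Clec9a: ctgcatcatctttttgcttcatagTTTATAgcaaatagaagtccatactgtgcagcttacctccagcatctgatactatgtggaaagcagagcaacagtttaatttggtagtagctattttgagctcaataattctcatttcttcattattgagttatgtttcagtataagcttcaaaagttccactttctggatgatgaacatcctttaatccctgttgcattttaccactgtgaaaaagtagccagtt
RefSeq windows were matched for 9 of the 10 genes, and *Ccr7* had no entry. A first search, on both strands of these windows, covered 4 motifs. A PU.1-IRF composite (GGAA and GAAA with 2 free bases between them) was in 0 of the 9 and in 2.30% of 32851 windows of that length. TGANTCA, an AP-1 motif, was in 1 of the 9 (*Zbtb46*) and in 6.75% of windows, and GAGGAAGT, a longer PU.1 motif, was in 0 and in 2.44%. TATAAA was in 3 of the 9 (*Xcr1*, *Clec9a* and *Cd209a*) and in 12.4% of windows, at 160 to 226 bases before the start. GGAAGT, a shorter PU.1 core that overlaps GAGGAAGT, was added as a 5th motif after the first search was seen and the *Xcr1* sequence, which holds it, had been read. It was in 7 of the 9 and in 19.7% of windows, and because it was picked from a member, that count is a description of these sequences and supports nothing. A match is not a binding site, and no binding was measured.

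Of the cDC1 genes, *Xcr1* encodes the chemokine receptor that defines cDC1 and lies on chromosome 9 at 123852315 to 123862029 (GRCm38, GENCODE M21, minus strand). Its normalized read count was 29.7, 29.6, 18.3 and 18.5 in sgScramble 1 to 4 and 61.3, 98.0 and 57.8 in sgKrt19 5, 6 and 8. Every sgKrt19 library was higher than every sgScramble library, a pattern that 21.7% of all genes tested showed, and sgKrt19 6 was the highest. The means were 24.05 ± 6.51 (SD, n = 4) and 72.3 ± 22.3 (SD, n = 3). This is a log2 difference of 1.55 (SE 0.297), and limma gave an adjusted p of 0.00362.

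*Clec9a*, on chromosome 6 at 129408862 to 129424763 (plus strand), encodes a receptor for exposed actin of dead cells. It had 50.2, 41.5, 33.8 and 62.1 in sgScramble 1 to 4 and 72.8, 95.02 and 89.3 in sgKrt19 5, 6 and 8. The groups did not overlap, though sgScramble 4 and sgKrt19 5 were close. The means were 46.9 ± 12.2 (SD, n = 4) and 85.7 ± 11.5 (SD, n = 3), and the log2 values differed by 0.88 (SE 0.248), for which limma gave an adjusted p of 0.0214. The limma call was lost without sgScramble 2 (adjusted p = 0.0579), sgKrt19 6 (0.0669) or sgKrt19 8 (0.0615), where the log2 difference was 0.84, 0.80 and 0.85. Scaled by total reads only, it was 0.67 (adjusted p = 0.0739 by limma). Of its exon bases, 5.59% are shared with *Clec1b* on the same strand, and reads there could be counted at either gene.

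*Batf3* encodes a transcription factor required for cDC1 and lies on chromosome 1 at 191097847 to 191108945. It had 57.6, 54.3, 64.8 and 59.4 in sgScramble 1 to 4 and 52.0, 56.0 and 91.4 in sgKrt19 5, 6 and 8. Only sgKrt19 8 was above the sgScramble range, and sgKrt19 5 was below it. The log2 fold change was 0.13 (95% interval −0.41 to 0.66; limma adjusted p = 0.707), and it was −0.12 without sgKrt19 8.

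*Wdfy4*, on chromosome 14 at 32959547 to 33185508, is needed for cross-presentation by cDC1. It had 183.9, 187.7, 177 and 331 in sgScramble 1 to 4 and 318, 474 and 262 in sgKrt19 5, 6 and 8. sgScramble 4 stood above its group and above 2 of the sgKrt19 libraries, so that the groups overlapped. The log2 fold change was 0.68 (95% interval 0.10 to 1.26), with an unadjusted p of 0.0260 and an adjusted p of 0.0678 by limma. The adjusted p was 0.0161 without sgScramble 4 by limma, and 0.0443 by DESeq2. In the 13 other alternatives it did not pass. By limma it was 0.230 without sgKrt19 6, where the log2 fold change was 0.44, and 0.215 with scaling by total reads only.

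*Cd209a*, the DC-SIGN homolog used as a cDC2 marker, lies on chromosome 8 at 3743397 to 3748984. It had 17.6, 0.988, 10.05 and 14.8 in sgScramble 1 to 4 and 13.9, 22.004 and 18.9 in sgKrt19 5, 6 and 8. The value in sgScramble 2 was 1 read, and the groups overlapped. On the log2 scale the difference was 1.08 (95% interval −0.45 to 2.61; limma adjusted p = 0.242), and it was 0.35 without sgScramble 2. With all libraries it was 0.72 by edgeR and 0.74 by DESeq2. No difference was detected in these libraries, which held 1 to 22 reads of the gene each.

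*Flt3*, the receptor for FLT3 ligand on dendritic cells and their precursors, lies on chromosome 5 at 147330741 to 147400489. It had 43.7, 33.6, 51.1 and 46.4 in sgScramble 1 to 4 and 53.2, 50.01 and 37.8 in sgKrt19 5, 6 and 8. The ranges overlapped over most of their length. The groups differed by 0.10 in log2 value (95% interval −0.43 to 0.64; limma adjusted p = 0.760), and its sign turned when libraries were scaled by total reads only.

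*Zbtb46* encodes a transcription factor of conventional dendritic cells and lies on chromosome 2 at 181387762 to 181459426. It had 100.3, 115.6, 126 and 127 in sgScramble 1 to 4 and 119, 130.0 and 130.2 in sgKrt19 5, 6 and 8. The groups overlapped, with sgScramble 1 the lowest. The log2 fold change was 0.11 (95% interval −0.26 to 0.49; limma adjusted p = 0.621), which bounds the difference between groups more closely than for any other of the 9 genes.

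*Ccr7*, on chromosome 11 at 99144196 to 99155077, encodes the receptor by which mature dendritic cells and some T cells migrate to lymph nodes. It had 92.0, 77.1, 123 and 105 in sgScramble 1 to 4 and 128, 90.0 and 126 in sgKrt19 5, 6 and 8. sgKrt19 6 lay inside the sgScramble range. sgKrt19 minus sgScramble was 0.21 on the log2 scale (95% interval −0.28 to 0.70; limma adjusted p = 0.478).

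*Ccl22* encodes a chemokine of mature dendritic cells that attracts regulatory T cells through CCR4, and lies on chromosome 8 at 94745590 to 94751699. It had 228, 145, 317 and 299 in sgScramble 1 to 4 and 199, 136 and 141 in sgKrt19 5, 6 and 8. Of the 9 tested genes it was the only 1 with a negative log2 fold change, and sgScramble 2 lay within the sgKrt19 range. The log2 fold change was −0.60 (95% interval −1.20 to 0.0043; limma adjusted p = 0.111). The adjusted p was 0.0237 without sgScramble 2 and 0.0377 when libraries were scaled by total reads only, both by limma, and 0.0486 by DESeq2. In the 12 other alternatives it did not pass, and by limma it was 0.253 without sgKrt19 6 and 0.238 without sgKrt19 8.

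*Siglech*, a surface receptor of plasmacytoid cells that some macrophages also carry, lies on chromosome 7 at 55768178 to 55778925. Its reads were 3, 2, 2 and 3 in sgScramble 1 to 4 and 6, 7 and 14 in sgKrt19 5, 6 and 8. The groups did not overlap, but all sgScramble libraries were at or under 3 reads and the gene failed the filter. Over the groups, 10 reads against 27 gave a ratio of normalized reads of 4.08, with an exact 95% interval of 1.92 to 9.46 that covers counting error only. Without the filter, limma gave an adjusted p of 0.0214.

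**Figure D2:**
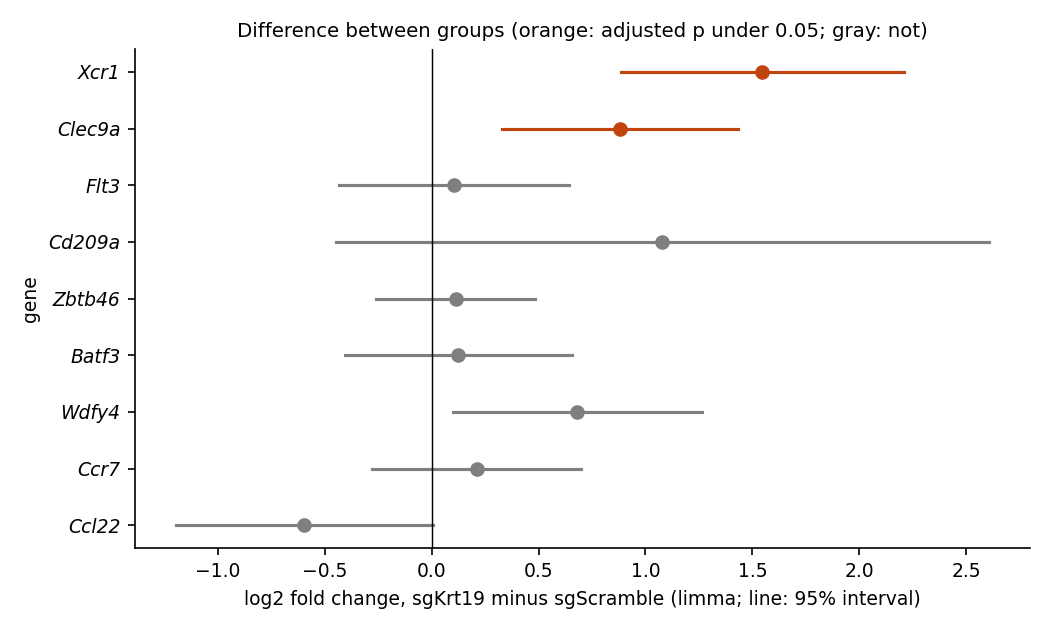
Log2 fold change of sgKrt19 minus sgScramble (horizontal axis) for the 9 genes tested, with 95% intervals from limma as lines. *Xcr1* at 1.55 and *Clec9a* at 0.88 (orange) passed an adjusted p of 0.05, and the 7 in gray did not.

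Per length, the order of the genes was much alike in both groups. In RPKM (reads scaled to gene length and library total), *Ccl22* was highest in sgScramble (2.67 ± 0.894, SD, n = 4), followed by *Ccr7* (1.26 ± 0.268) and *Batf3* (0.925 ± 0.084). *Siglech* was lowest at 0.017 ± 0.0039. Neighbours in this order overlapped in range except *Batf3* and *Wdfy4*, *Zbtb46* and *Flt3*, and *Xcr1* and *Siglech*. *Xcr1* was ninth in sgScramble (0.134 ± 0.0328) and sixth in sgKrt19 (0.353 ± 0.125), where its range overlapped those of its neighbours *Clec9a* and *Zbtb46*.

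Leukocyte genes as a whole also differed between the groups, so the 10 genes were set beside *Ptprc*, the pan-leukocyte gene that encodes CD45. *Ptprc* averaged 965 ± 184 over the 4 sgScramble libraries and 2186 ± 275 over the 3 sgKrt19 libraries (SD), and its log2 values differed by 1.19 (adjusted p = 0.000518 by limma). With 4 against 3 libraries, the exact two-sided permutation test over 35 splits cannot go below 0.0571.

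Relative to *Ptprc* in the same library, 5 genes had lower log2 ratios in all sgKrt19 libraries than in any sgScramble library. Each ratio takes in the rise of *Ptprc* by 1.19, so a gene equal in both groups falls by about that much. The share of all genes without overlap on this ratio was not computed, so the pattern is not shown to be particular to the 5. The differences in mean log2 ratio were −1.09 for *Flt3*, −1.08 for *Zbtb46*, −1.07 for *Batf3*, −0.98 for *Ccr7* and −1.79 for *Ccl22*. Each had the smallest p the design allows (exact permutation p = 0.0571, adjusted 0.114), so none could pass 0.05. For *Xcr1* the difference was 0.36 (exact permutation p = 0.343) and for *Clec9a* −0.31 (exact permutation p = 0.114), and the groups overlapped for both. The value of *Xcr1* was 0.14 without sgScramble 4 and 0.20 without sgKrt19 6. *Wdfy4* had −0.51 (exact permutation p = 0.114), *Cd209a* −0.11 (exact permutation p = 0.914) and *Siglech* 0.40 (exact permutation p = 0.629). With the mean of the pan-leukocyte genes as reference, *Batf3* overlapped between groups (−0.84, exact permutation p = 0.171) and *Siglech* did not (0.62, exact permutation p = 0.0571). On that reference *Xcr1* had 0.58, *Clec9a* −0.087 and *Wdfy4* −0.29, all with overlap, while *Flt3*, *Zbtb46*, *Ccr7* and *Ccl22* again did not overlap.

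**Figure D3:**
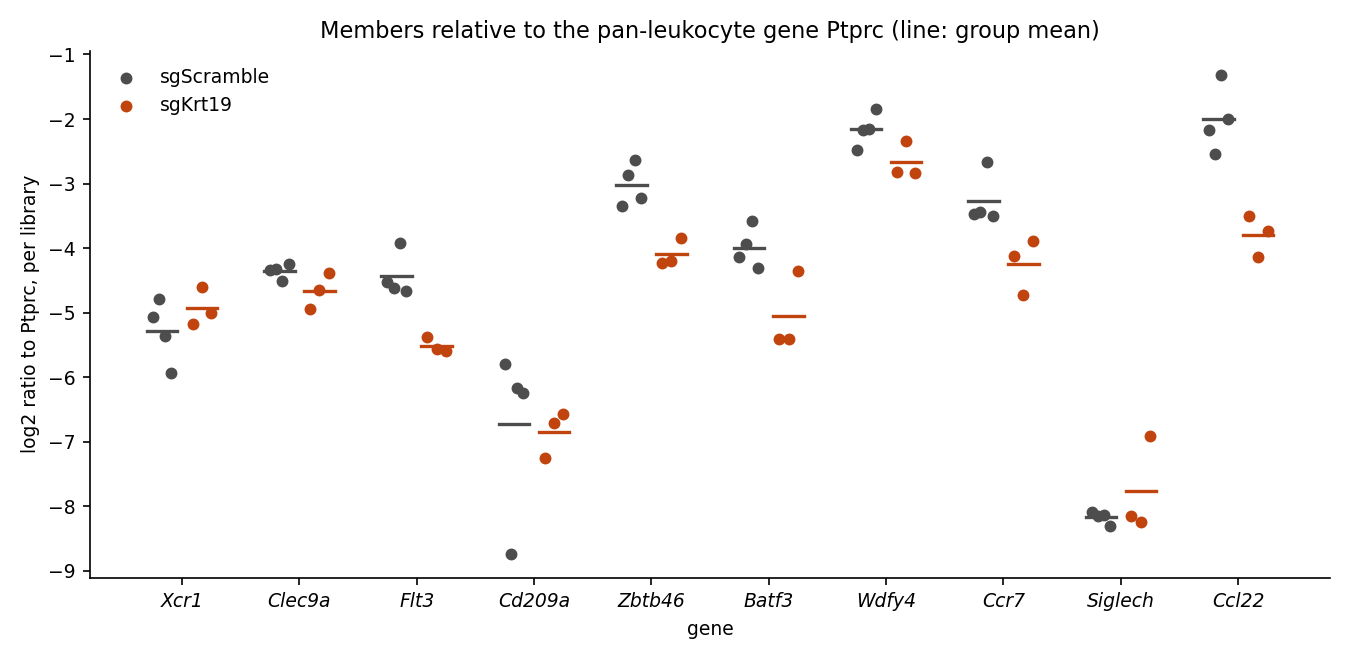
Log2 ratio of each gene to *Ptprc* (vertical axis) in each library, sgScramble in gray and sgKrt19 in orange, with lines at the group means. The groups do not overlap for *Flt3*, *Zbtb46*, *Batf3*, *Ccr7* and *Ccl22*, where sgKrt19 is lower. *Ptprc* itself was higher in sgKrt19, by 1.19 on the log2 scale.

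Of 5 pairs of genes compared with each other, *Ccl22* to *Ccr7* fell in log2 ratio from 1.27 to 0.46, a difference of −0.81 with groups that did not overlap (exact permutation p = 0.0571, adjusted 0.143). *Siglech* to *Flt3* differed by 1.49 with the same p, on few reads of *Siglech*. *Xcr1* to *Cd209a* differed by 0.47 (exact permutation p = 0.743), *Clec9a* to *Cd209a* by −0.20 (0.914) and *Ccr7* to *Zbtb46* by 0.10 (0.686), all with overlap. The first of these was 1.30 without sgScramble 2, the library with 1 read of *Cd209a*, and 0.23, 0.25 and 0.088 without sgScramble 1, 3 and 4.

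The ligands of these receptors were examined next. *Xcl1*, the ligand of XCR1 made by NK cells and CD8+ T cells, had 111, 38.5, 65.8 and 78.8 in sgScramble 1 to 4 and 287, 299 and 217 in sgKrt19 5, 6 and 8. It was higher in every sgKrt19 library, by 1.93 on the log2 scale (SE 0.313), at an adjusted p of 0.00147 by limma. Of its exon bases 18.7% overlap *Gm20743* on the opposite strand.

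*Flt3l*, which encodes FLT3 ligand, had 141, 175, 127 and 162 in sgScramble 1 to 4 and 207, 241 and 258 in sgKrt19 5, 6 and 8. The groups did not overlap, and the log2 difference was 0.64 (SE 0.170), at an adjusted p of 0.0170 by limma, beside 0.10 for its receptor. *Gm45713* on the same strand shares 22.1% of its exon bases.

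The CCR7 ligands *Ccl19* and *Ccl21a* were low and each had 2 rows, which are close copies that can share reads. In the row of each that was tested, the log2 fold change was 1.64 for *Ccl19* and 2.15 for *Ccl21a* (limma adjusted p = 0.0127 and 0.00648). *Ccl21a*, with 2.79 to 10.05 in sgScramble and 16.0 to 40.5 in sgKrt19, passed the filter only through the sgKrt19 libraries, so its call is no support for a difference. The CCL22 receptor *Ccr4* had 3.72, 3.95, 3.65 and 8.35 in sgScramble 1 to 4 and 3.47, 1 and 3.15 in sgKrt19 5, 6 and 8, and was not tested.

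Of 10 ligand and partner genes tested, 8 rose and 0 fell, with a median log2 fold change of 1.78, beside 17.9% higher and 16.0% lower over all genes. Without *Ccl21a* 7 rose, and 6 rose under the stricter filter or without sgKrt19 8. Besides those above, the chemokines *Ccl3* (2.18), *Ccl4* (2.52) and *Ccl5* (2.19) and the growth factor *Csf2* (1.38) rose. *Cxcl16* (0.30), a chemokine that attracts CXCR6+ T cells, did not pass. *Tslp* and the second rows of *Ccl19* and *Ccl21a* were not tested.

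**Figure D4:**
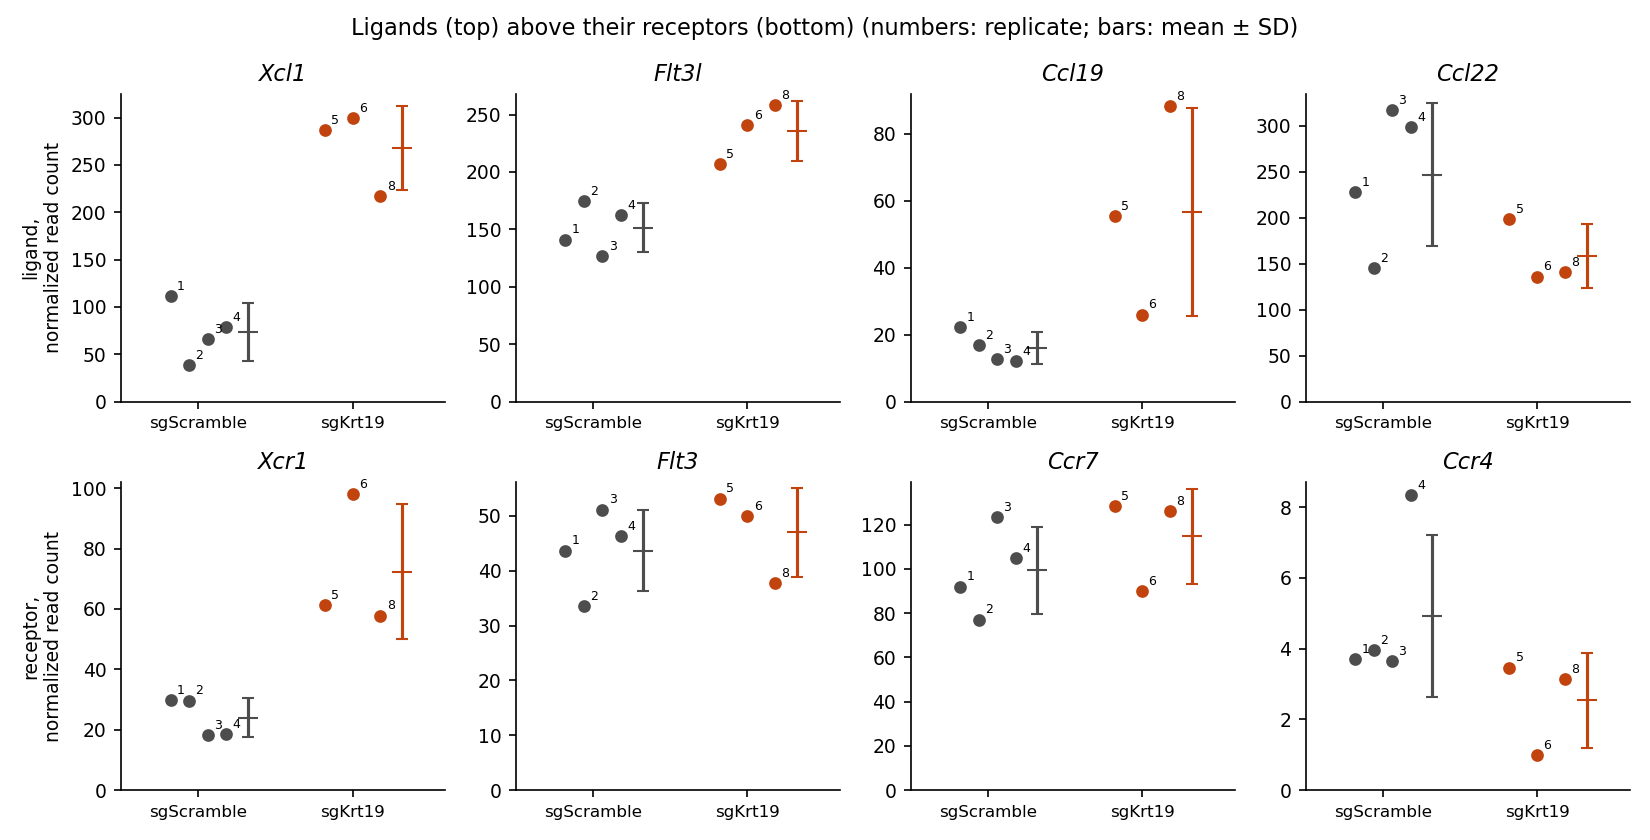
Normalized read count (vertical axis, from 0) of 4 ligands in the upper row above their receptors in the lower row, by library, with bars at the mean ± SD. *Xcl1*, *Flt3l* and *Ccl19* are higher in all 3 sgKrt19 libraries, whereas *Flt3*, *Ccr7* and *Ccl22* overlap between groups.

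Other genes of each subset were then counted, and each count is read beside the 17.9% of all genes called higher and 16.0% called lower. Of 10 other cDC1 genes tested, 6 rose and 1 fell (median log2 fold change 0.76). *Itgae*, which encodes the integrin CD103 and is also carried by tissue T cells, rose by 1.55 on the log2 scale, the double-stranded RNA sensor *Tlr3* by 1.14 and *Naaa*, a lipid amidase, by 0.84. *Cadm1*, an adhesion molecule, fell by 1.34 on the log2 scale. *Irf8*, *Snx22* and *Cd24a* also rose. *Snx22* shares 28.5% of its exon bases with *Ppib* on the opposite strand. *Cd24a* averaged 16477.5 in sgScramble and 26674.5 in sgKrt19, *Snx22* 6358 and 9456, and *Cadm1* 3512 and 1408.5. *Itgae* averaged 83.0 and 248, beside 24.0 and 72.3 for *Xcr1*. Of these 10 other cDC1 genes only *Gcsam*, at 8.57 in sgScramble, averaged below *Xcr1*. Which cells these transcripts came from was not tested, so the count of 6 is not shown to come from cDC1.

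Of 12 other cDC2 genes, 3 rose (25.0%) and 3 fell (median 0.40), shares near those of all genes. *Ffar2*, a fatty acid receptor that neutrophils also carry, rose by 1.90 on the log2 scale, *Klf4* by 1.43 and *Sirpa* by 0.48. *Notch2* fell by 1.10 on the log2 scale, the lectin *Mgl2* by 0.87 and the lipid presenting *Cd1d1* by 0.86. *Irf4*, a transcription factor of cDC2, had 0.40 and the lectin *Clec10a* 0.47, and neither passed.

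Of 15 other genes of mature or migratory dendritic cells, 5 rose (33.3%, beside 17.9% of all genes) and 1 fell (median 0.36). *Il15ra*, which trans-presents IL-15, rose by 1.03 on the log2 scale, *Cd274*, which encodes PD-L1, by 1.01 and *Cd200* by 0.94, and *Cd40* also rose. The calcium channel subunit *Cacnb3* fell by 1.07 on the log2 scale. *Ccl17*, the neighbour of *Ccl22* that also binds CCR4, had −0.01, and *Fscn1* −0.32, and neither passed. *Il12b* was not tested.

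Of 11 other plasmacytoid genes, 4 rose (36.4%, beside 17.9% of all genes) and 0 fell (median 0.30). The interferon-induced *Irf7* rose by 1.68 and *Bst2* by 1.53 on the log2 scale, both of which many cell types express. *Cox6a2*, which is also the muscle form of a cytochrome c oxidase subunit, had 4.64, 2.96, 21.0 and 0.927 in sgScramble 1 to 4 and 227, 146 and 152 in sgKrt19 5, 6 and 8. It passed the filter only through the sgKrt19 libraries, and 3 plasmacytoid genes rose without it. The more restricted *Spib* and *Ly6d* had 0.14 and −0.20 and did not pass, and *Ccr9* was not tested. Of 10 genes listed as pan-dendritic, 4 rose and 0 fell (median 0.51), among them *Cd74* (0.999), *Ikzf1* (0.91) and *Itgax* (0.55), the last of which encodes CD11c. The median of the pan-leukocyte genes was 0.93, and the members *Flt3* and *Zbtb46* had 0.10 and 0.11. Whether the 4 rose in dendritic cells was not tested.

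**Figure D5:**
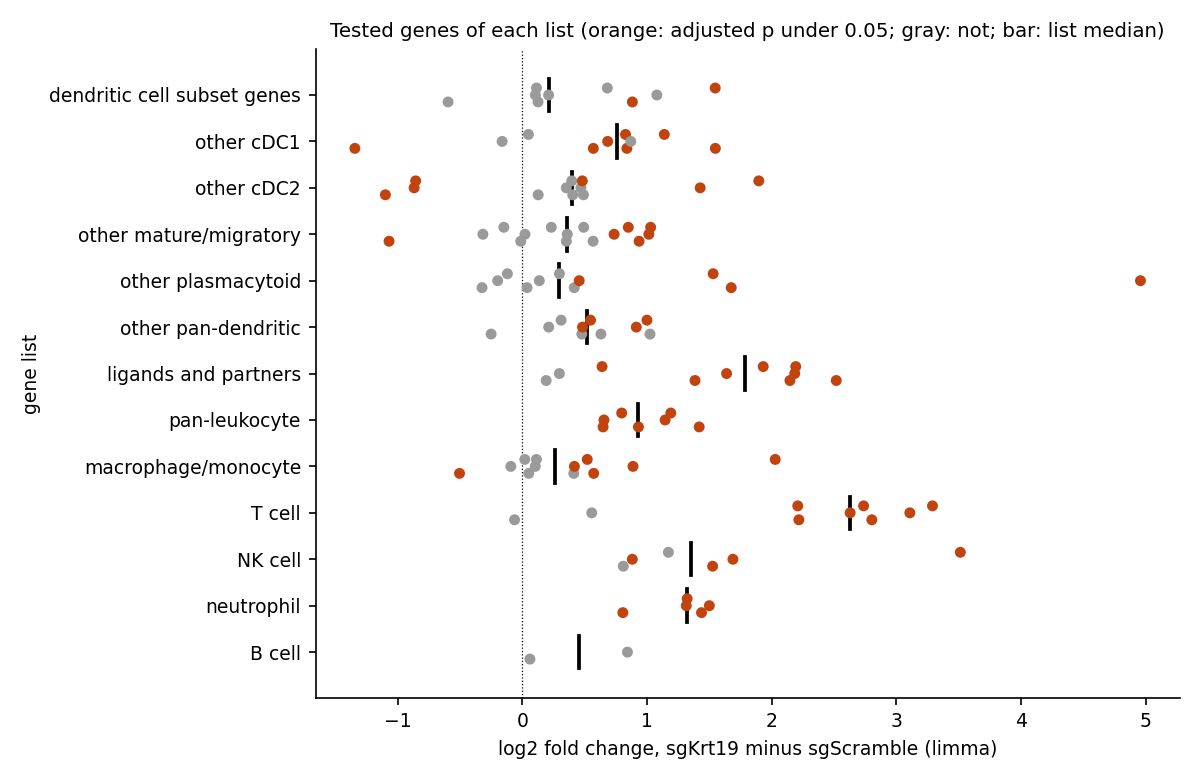
Log2 fold change (horizontal axis) of each tested gene of 13 lists, orange where the adjusted p was under 0.05 and gray where not, with a bar at the list median. The median is 0.21 for the dendritic cell subset genes, 1.78 for the ligands and partners and 2.63 for the T cell genes.

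Genes of other leukocytes moved with the groups as well, and their counts are read beside 17.9% of all genes called higher and 16.0% called lower. All 7 pan-leukocyte genes, 7 of 9 T cell genes, 4 of 6 NK cell genes and 5 of 5 tested neutrophil genes rose, of which 1 NK cell and 1 neutrophil gene passed the filter only through sgKrt19. The summed value of the T cell list was 503 to 1004 in sgScramble and 3040 to 5590 in sgKrt19, and that of the NK cell list 178 to 312 and 1067 to 1305. The NK cell sum includes *Gzma*, which rose by 3.51 on the log2 scale, beside a list median of 1.35. The NK cell marker *Ncr1* had 0.81 and did not pass, so the sum does not speak for each gene of that list. Of 12 macrophage and monocyte genes, 5 rose and 1 fell, and *Adgre1* (0.02) and *Csf1r* (0.05) did not pass. The 2 B cell genes tested did not pass, and *Ms4a1*, which encodes CD20, was too low to test. *Cd207*, which marks Langerhans cells of the skin, had at most 1.86 in sgScramble and 0 in the 3 sgKrt19 libraries. Several of the subset genes are not restricted to dendritic cells, and the part of these other cells in the results was not tested.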

How the data were processed

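RNA from 7 subcutaneous tumors was sequenced by the authors, who deposited 1 table of 38026 genes with 1 column per library. The deposited signal is a normalized read count, that is, reads per gene divided by a size factor. Whole reads were recovered for 100% of values (within 0.1 read). The labels name mm10. The aligner and the counting program are not given in the sources used here. The labels name poly(A) RNA and the methods a total RNA kit. No column was left unused. Of gene identifiers, 37167 (97.7%) matched GENCODE M21, which supplied positions and exon lengths.

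The filter required 3 or more libraries with a value of 10 or more, and limma 3.58.1 in R 4.3.3 was run on log2(value + 1) with eBayes trend and Benjamini-Hochberg adjustment over all genes tested. Ratios used exact two-sided permutation tests in SciPy 1.17.1. Alternatives were pseudocounts of 0.5 and 5, no filter, a filter at 50, total reads as the only scaling, no trend, leaving out each library, and edgeR 4.0.16 and DESeq2 1.42.0 on the recovered reads. The limma and edgeR steps were also run on simulated counts. These had far fewer changed genes than were called here and the same dispersion for every gene, so that run does not vouch for the calls. A floor of 3 reads was used, which, like the interval of *Siglech*, covers counting error only.

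The members and lists were chosen with earlier results of these data known. Named are the 10 genes, *Krt19*, *Ptprc*, every ligand or partner, up to 3 genes called each way with the largest change in each other list, and defining markers of other cell types. Some items that the rule names are not reported here. *Irf8*, *Snx22*, *Cd24a* and *Cd40* were named after their values were seen. The 5th motif, the choice of printed sequences and the counts without genes that passed the filter only through sgKrt19 were also chosen after seeing the data. The labels give no batch or date, so that a batch could not be examined.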

Additional observations from a re-analysis of the deposited data

Results flagged for a closer look

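The search covered 26 rows: the 10 genes, their ligands and partners with both rows of *Ccl19* and *Ccl21a*, *Krt19* and *Ptprc*. Of these, 3 had 1 sgScramble library far from the other 3 of its group by Dixon's test, in which chance gives about 1 in 20 groups. *Wdfy4* had 331 in sgScramble 4, above the other sgScramble libraries. *Ccr4*, at few reads, had 8.35 in the same library. *Ccl3* had 92.0 in sgScramble 1, and still lay below every sgKrt19 library. The cause was not tested.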

How the results depend on the processing

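*Xcr1* was called higher under all 15 alternatives (log2 fold change 1.31 to 1.69, adjusted p at most 0.0178), and edgeR called the same 2 genes as limma. The count called higher was 1 and the count called lower 1 with scaling by total reads only, which moves the median log2 fold change of all genes from 0.0072 to −0.21. DESeq2 called 1 lower. Leaving out each library in turn gave 1 to 3 higher and 0 to 1 lower.

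For the other lists, scaling by total reads only gave 2 lower for cDC1, 3 lower for mature cells, 1 lower for plasmacytoid and 2 higher for pan-dendritic genes. Leaving out libraries gave 1 to 2 lower for mature cells, 0 to 1 lower for plasmacytoid and 2 to 7 higher for pan-dendritic genes.

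With total reads only, the log2 fold change turned to −0.11 for *Flt3*, −0.10 for *Zbtb46*, −0.087 for *Batf3* and −0.0040 for *Ccr7*. It was −0.014 for *Flt3* without sgScramble 2 and −0.12 for *Batf3* without sgKrt19 8. The ratio of *Cd209a* to *Ptprc* turned to 0.11 with the pan-leukocyte mean as reference, to 0.20, 0.078 and 0.052 without sgScramble 1, 3 and 4, and to 0.091 without sgKrt19 5. That of *Siglech* turned to −0.24 at a pseudocount of 5 and −0.028 without sgKrt19 8. *Clec9a* to *Cd209a* turned to 0.13 at a pseudocount of 5 and 0.48 without sgScramble 2. *Ccr7* to *Zbtb46* turned to −0.011 without sgScramble 2 and −0.034 without sgKrt19 5. Over all libraries left out in turn, the highest was 0.25 for *Flt3* and 0.28 for *Batf3*, the lowest ratio of *Cd209a* to *Ptprc* was −0.78 and the highest of *Siglech* 0.64, *Clec9a* to *Cd209a* went down to −0.50 and *Ccr7* to *Zbtb46* up to 0.28. The cause was not tested.

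The paper's legend for the RNA-seq heat map calls the sgScramble and *Krt19*-edited cells paired. The labels do not say which libraries would form a pair, and the groups share no replicate number. No paired analysis was therefore possible, and any pairing is ignored here. Low reads limit *Siglech*, *Cd209a* and *Ccr4*.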
